A study of Rattus norvegicus with 18 samples.

Results

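The comparison described here is that of Ets1-KO with control myelin-specific T cells recovered from the parenchyma of the rat spinal cord. It rests on 6 of the 18 rat libraries of the series, 3 per genotype. Each is a bulk 3′ mRNA library, in which reads mark the 3′ end of a transcript. Genes were chosen by a mean normalised count of at least 10 over the 6 libraries, which kept 7002 of the 32882 genes in the table. A read in any of the 6 was found for 13726 genes. The cells were TMBP cells, CD4+ T cells specific for myelin basic protein that had been raised from an immunised Lewis rat, kept in culture and restimulated with the antigen. Ribonucleoproteins of Cas9 protein and 1 guide RNA were electroporated into them, with an Ets1 guide in cells that express EGFP (Ets1-KO) and a non-targeting guide in cells that express BFP (NT control, labelled WT). Fluorescent protein and genotype therefore cannot be told apart. Both populations were transferred together into male or female Lewis rats of 5 to 20 weeks of age, and on day 3 after transfer they were enriched on a density gradient and sorted from the spinal cord by flow cytometry. The KO cells are edited populations, reads at 3′ ends do not show the edit, and the labels do not say which libraries came from the same rat or pool of rats. Control and KO libraries of the same replicate number were taken as a pair because of the co-transfer.

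The guide sequences are shown because they are the only designed difference between the genotypes besides the fluorescent protein. They are written 5′ to 3′ in lower case.
Non-Targeting: gctgcatggggcgcgaatca
Ets1(rat): tgctgctcggagttaacagt

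ETS1 is a transcription factor of the ETS family, which bind DNA at sites with a GGAA core, and it is abundant in resting lymphocytes. In CD4+ T cells it is known to take part in cytokine production, in the response to antigen and in the balance between helper lineages. In this transfer model of encephalomyelitis the cells are activated again by antigen once they reach the central nervous system, where they release cytokines and chemokines that draw in other leukocytes.

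Libraries of the parenchyma held between 1246779 and 1546206 reads on genes, with 10782 to 10938 genes detected. The 12 defining markers of CD4+ T cells were all measured, 0 of them was called by limma, edgeR or DESeq2 (4 at an unadjusted limma p under 0.05), and their summed level was 6182 to 6544 normalised counts in control and 6428 to 6659 in Ets1-KO libraries. Among the most abundant of them, Cd3d (a chain of the T cell receptor complex) had 1452, 1352 and 1320.0 counts in the control and 1467, 1454 and 1580.0 in the Ets1-KO libraries, a log2 fold change of 0.13 (SE 0.07, limma adjusted p = 0.372). Cd2 (an adhesion receptor) had 1009, 1167 and 989 in control and 1104, 1230.3 and 1273 in Ets1-KO libraries. Of the 12, 7 had log2 fold changes below 0, and the lowest was that of Cd4 itself. Cd4 had 43.9, 35.7 and 49.1 in control and 33.4, 28.3 and 22.7 in Ets1-KO libraries, lower without overlap, but its log2 fold change of −0.60 (SE 0.23) did not pass (limma adjusted p = 0.121). The adaptor gene Lat, at 430.6, 465.5 and 442.3 in control and 373, 416.5 and 358.2 in Ets1-KO libraries, was also lower without overlap and did not pass (log2 fold change −0.22, SE 0.09, limma adjusted p = 0.15). Both were named after their values were seen. Of 23 myeloid and microglial markers 1 reached the count minimum, Lyz2 (lysozyme), at 30.8, 16.9 and 30.5 in control and 45.5, 20.2 and 47.6 in Ets1-KO libraries, and its log2 fold change of 0.47 did not pass (limma adjusted p = 0.319). The summed myeloid markers ranged from 48.9 to 70.8 in control and from 64.7 to 99.1 in Ets1-KO libraries, with Adgre1, Mrc1, Cd163, P2ry12, Csf3r and Siglec1 at 0. B cell and plasma cell markers summed to at most 5.64 in control and 7.08 in Ets1-KO libraries with 10 of 14 at 0 (Ms4a1, Cd79b and Pax5 among them). Endothelial and erythroid markers summed to at most 1.97 and 1.13 with 8 of 12 at 0 (Cldn5, Cdh5 and Hbb among them). Glial and neuronal markers summed to 210.2 to 235.1 and 168.9 to 228.5, with Aqp4, Slc1a2, Gja1 and Sncb at 0. Mbp and Cnp, the 2 that were tested, had log2 fold changes of −0.29 and −0.34 (limma adjusted p = 0.395 and 0.139).

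Ets1 itself was measured at 2326, 2573 and 2302 normalised counts in the control libraries (replicates 1, 2 and 3, the order kept throughout) and at 2682, 2628 and 2342 in the Ets1-KO libraries. The groups overlapped, and the log2 fold change of 0.09 (SE 0.07) passed neither limma (adjusted p = 0.56) nor the two-sided exact permutation test of 3 against 3 libraries (p = 0.2, where 0.1 is the smallest p of its 20 labellings). The labels therefore have no check in the level of the transcript. The study reports that it assessed editing of its single knockout lines from sequenced DNA before use. Its supplement also holds a blot of ETS1 protein in NT and KO cells. Neither was examined here. Of 13 ETS family factors tested, 0 was called by limma, edgeR or DESeq2 and 1 had an unadjusted limma p under 0.05. Elf1, the member with the highest mean after Ets1, had a log2 fold change of 0.01 (SE 0.11, limma adjusted p = 0.974).

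Across all genes tested, 366 of 7002 (5.23%) were called at a Benjamini-Hochberg adjusted p under 0.05 by limma on log2(normalised count + 1) with the replicate number as a block. Of these, 159 (2.27%) had risen and 207 (2.96%) had fallen with the knockout. Among the 366, 357 changed in the same direction in all 3 pairs, and 326 had groups that did not overlap, against 1288 genes (18.4%) of all tested. Most changes were small, since 57 of the calls exceeded 1 on the log2 scale in size, 26 higher and 31 lower, and the median log2 fold change over all genes tested was −0.03. edgeR's quasi-likelihood test on the recovered reads called 354 genes (5.06%), 194 higher (2.77%) and 160 lower (2.29%), and 318 genes (4.54%) were called by both in the same direction. The balance of directions depended on the method, with 43.4% of the limma calls, 54.8% of the edgeR calls and 68.6% of the 86 DESeq2 calls higher in Ets1-KO cells. Without the block limma called 200 genes, 99 higher and 101 lower, all of them among the 366. Without replicate 1 it called 217 genes and without replicate 2 165. limma's variance trend left no gene-specific spread in these tests (its prior degrees of freedom were not finite), and without the trend 3 genes were called. The gene lists below and their members were chosen with earlier results of these data known. Their shares of calls are descriptions, to be read beside the 2.27% higher and 2.96% lower of all genes tested.

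**Figure D1:**
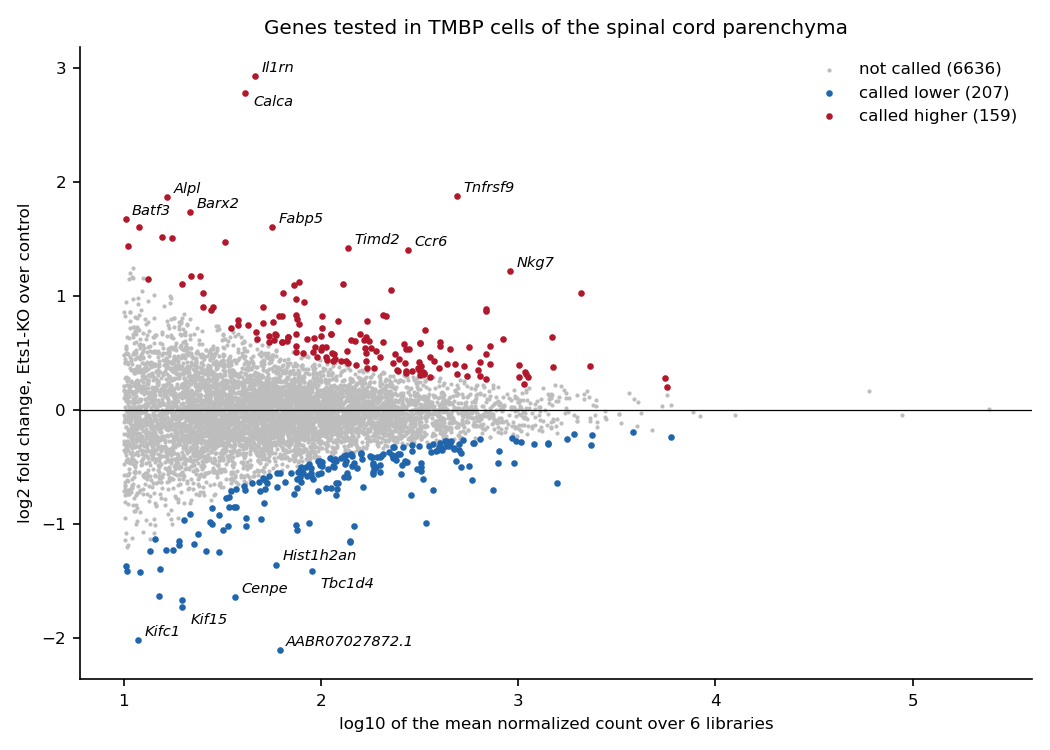
Log2 fold change of Ets1-KO against control (vertical axis) by log10 of the mean normalised count over the 6 parenchyma libraries (horizontal axis), with 1 point for each gene tested. The 159 genes called higher are red, the 207 called lower blue and all others grey, with Il1rn and Calca highest and AABR07027872.1 and Kifc1 lowest.

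The 2 largest rises were of genes with secreted products. Il1rn, which encodes the interleukin-1 receptor antagonist (Rnor_6.0 chromosome 3, 1452643 to 1468614), had 8.41, 12.2 and 8.85 normalised counts in the control and 58.6, 107 and 82.7 in the Ets1-KO libraries. Its control libraries lay near the count minimum of 10. All 3 Ets1-KO libraries lay far above the controls, a log2 fold change of 2.93 (SE 0.25, limma adjusted p = 2.53e-27), or 7.61-fold by the limma fit. Calca, the gene of calcitonin and the neuropeptide CGRP (chromosome 1, 184184019 to 184188911), had 7.47, 15.05 and 7.86 in the control and 64.7, 85.9 and 66.9 in the Ets1-KO libraries, and no library of one group reached the other (log2 fold change 2.78, SE 0.26, limma adjusted p = 3.5e-23). Among the 13 cytokine and growth factor genes tested 4 rose and 1 fell, with 10 above 0 and a median log2 fold change of 0.25. Of the 13, 38.5% were called, against 5.23% of all genes tested. Besides Il1rn and Calca the members that rose were cytokines of type 17 helper cells. Il22 had 85.0, 79.9 and 54.1 in control and 161, 120.3 and 107 in Ets1-KO libraries (log2 fold change 0.82, SE 0.15, limma adjusted p = 3.75e-06), and Il17a 389.5, 340.4 and 249 in control and 587, 431 and 421 in Ets1-KO libraries (log2 fold change 0.56, SE 0.09, limma adjusted p = 3.01e-07). The groups of both genes were separate, although the lowest Ets1-KO library of Il22 was 107 and the highest control 85.0. Il16, which encodes a chemoattractant that binds CD4, fell by 0.42 on the log2 scale (SE 0.12, limma adjusted p = 0.0111). Il1rn is also made by myeloid cells, whose summed markers were 64.7 to 99.1 in Ets1-KO and 48.9 to 70.8 in control libraries, and their part in its rise was not tested. Without replicate 1, the call of Il16 was lost (limma adjusted p = 0.114). For Il16, leaving out replicate 2 ended the call (limma adjusted p = 0.257).

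The chemokine genes that were called all rose, beside 2.27% called higher and 2.96% lower among all genes tested. All 5 chemokines tested were above 0, and the 3 that rose were Ccl3, Ccl4 and Ccl5, whose products attract T cells and monocytes. Ccl4 had 1477, 996 and 1023 normalised counts in the control and 2178, 1488 and 1759 in the Ets1-KO libraries, and in both groups replicate 1 was the highest. Its log2 fold change was 0.64 (SE 0.07, limma adjusted p = 4.63e-16), and the groups were only just apart. For Ccl3 the values were 348, 349.8 and 259 in control and 549.9, 473 and 422 in Ets1-KO libraries, and for Ccl5 2149, 1743 and 2137 in control and 2508, 2430.2 and 2905 in Ets1-KO libraries, with no overlap between groups for either (log2 fold changes 0.60 and 0.38, SE 0.09 and 0.07, limma adjusted p = 3.27e-08 and 2.95e-06). Of 16 chemoattractant and homing receptors tested, 1 rose and 1 fell. Ccr6, the receptor for CCL20 that marks type 17 cells, rose by 1.40 (SE 0.11, limma adjusted p = 1.78e-36). Ccr3, a receptor for eotaxins and CCL5, had 489, 433 and 440.3 in the control and 269.9, 202 and 213 in the Ets1-KO libraries. Every Ets1-KO library was below every control library of Ccr3, and the fall was −0.997 (SE 0.10, limma adjusted p = 2.45e-21) on the log2 scale. The log2 fold changes of the other 14 receptors did not pass, and the median of the list was 0.03. All calls named here held when each replicate number was left out in turn.

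Of the 24 cytokine receptors tested 5 rose and 1 fell (25.0% called, against 5.23% of all genes tested). Both inducible chains of the interleukin-2 receptor were among them. Il2ra had 668, 638 and 667 in the control and 1044, 1031 and 958 in the Ets1-KO libraries, with close values within each group and a log2 fold change of 0.62 (SE 0.08, limma adjusted p = 1.89e-12). Il2rb had 824, 938 and 850.2 in control and 1189, 1131 and 1096 in Ets1-KO libraries, also without overlap (log2 fold change 0.39, SE 0.08, limma adjusted p = 3.58e-05). Il21r and Il4r, receptor chains for the helper cytokines IL-21 and IL-4, and Igf2r, the mannose 6-phosphate receptor, rose by 0.59, 0.40 and 0.66 on the log2 scale (SE 0.11, 0.09 and 0.12, limma adjusted p = 1.81e-05, 0.000398 and 1e-05). Il17ra, a chain of the IL-17 receptor, fell, at 405, 426 and 496 in control and 335, 332 and 375 in Ets1-KO libraries (log2 fold change −0.35, SE 0.09, limma adjusted p = 0.00733), so that the Il17a transcript and that of its receptor changed in opposite directions. The median of the 24 was 0.02 with 12 above 0 and 12 below. In the fit without replicate 1, Il21r no longer passed (limma adjusted p = 0.0534). For Il17ra, leaving out replicate 2 ended the call (limma adjusted p = 0.147). Il17ra did not pass without replicate 3 (limma adjusted p = 0.0624).

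Costimulatory and inhibitory receptors gave small counts. Of 20 members of the TNF receptor family and costimulators 2 rose and 2 fell. Tnfrsf9 (4-1BB, a costimulator of activated T cells) had 239, 212 and 179.9 in the control and 693, 743 and 877 in the Ets1-KO libraries, without overlap. Its log2 fold change was 1.87 (SE 0.09, limma adjusted p = 6.6e-86), or 3.66-fold by the limma fit. Icos, a costimulatory receptor of the CD28 family, rose by 0.20 with overlapping groups (5095, 5981 and 4908 in control and 5822, 6664 and 5811 in Ets1-KO libraries, limma adjusted p = 0.0421). Tnfrsf4 (OX40) had 173, 181 and 150.4 in control and 135, 111 and 109.9 in Ets1-KO libraries, a fall without overlap (log2 fold change −0.50, SE 0.13, limma adjusted p = 0.00403). Traf1, an adaptor of these receptors, fell by limma (log2 fold change −0.50, SE 0.16, limma adjusted p = 0.0409) but did not pass edgeR (adjusted p = 0.0532). Of 13 inhibitory receptors and exhaustion-associated genes 3 rose and 0 fell (23.1% called, against 5.23% of all genes tested). Lag3, which binds MHC class II, had 259.7, 261 and 241 in control and 349, 394 and 399 in Ets1-KO libraries (log2 fold change 0.58, SE 0.10, limma adjusted p = 7.2e-07). Havcr2 (TIM-3) had 15.9, 10.3 and 9.83 in control and 36.4, 26.3 and 19.3 in Ets1-KO libraries (log2 fold change 1.11, SE 0.32, limma adjusted p = 0.0136), and Nr4a2, a nuclear receptor induced by antigen, 116, 156 and 125 in control and 222, 226 and 169 in Ets1-KO libraries (log2 fold change 0.63, SE 0.12, limma adjusted p = 1.74e-05). In each of the 3 genes the groups did not overlap. Timd2, a receptor of the same family as Havcr2, was among the 15 largest rises, with 79.4, 82.8 and 62.9 in control and 213, 197 and 190.4 in Ets1-KO libraries (log2 fold change 1.41, SE 0.13, limma adjusted p = 7.15e-23). Havcr2, Icos and Traf1 did not pass once replicate 1 was left out (limma adjusted p between 0.158 and 0.335). Havcr2, Icos, Tnfrsf4 and Traf1 did not pass without replicate 2 (limma adjusted p between 0.0551 and 0.306). For Traf1, leaving out replicate 3 ended the call (limma adjusted p = 0.271).

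Genes of cytotoxic granules moved in both directions. Of 19 tested 5 rose and 2 fell, with 12 above 0 and a median log2 fold change of 0.16. Of the 19, 36.8% were called, against 5.23% of all genes tested. Prf1, the pore-forming protein, had 1505, 1349 and 1274 in the control and 2703, 2831 and 2847 in the Ets1-KO libraries. Nkg7, a granule membrane protein, had 617, 569.9 and 469.8 in control and 1185, 1393 and 1246 in Ets1-KO libraries, and the groups of both genes were wide apart (log2 fold changes 1.02 and 1.21, SE 0.07 and 0.08, limma adjusted p = 1.78e-45 and 2.87e-49). The granule protease Gzma rose by 0.94 (SE 0.16), Cst7, an inhibitor of the cathepsins that process granzymes, by 1.10 (SE 0.17), and Srgn, the proteoglycan that packs granules, by 0.29 (SE 0.08), with limma adjusted p = 7.82e-07, 3.55e-08 and 0.00578. Ctsw, a cathepsin of killer cells, went the other way, with 389, 407 and 389 in control and 215, 257 and 311 in Ets1-KO libraries and no overlap (log2 fold change −0.61, SE 0.10, limma adjusted p = 8.9e-08). Lamp2, a lysosomal membrane protein, fell by 0.52 on the log2 scale (SE 0.12, limma adjusted p = 0.000495). The CD8 T cell and NK cell markers summed to 1083 to 1206 in control and 1900.0 to 2169 in Ets1-KO libraries, and Nkg7 and Tbx21 made up most of these sums. The defining markers Cd8b and Ncr1 were at 0 in all 6 libraries, and Cd8a was at most 3.74 in control and 10.1 in Ets1-KO libraries. Without replicate 1, the calls of Lamp2 and Srgn were lost (limma adjusted p between 0.0535 and 0.135). For Lamp2, Srgn and Tbx21, leaving out replicate 2 ended the calls (limma adjusted p between 0.0599 and 0.107). Srgn did not pass without replicate 3 (limma adjusted p = 0.0507).

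Of the 35 T helper lineage factors tested 11 rose and 0 fell, with 23 above 0 and a median of 0.10, against 2.27% called higher among all genes tested. The members were chosen with earlier results of these data known, so this share is a description. The 11 rises became 6 without replicate 2 and 4 by DESeq2 with the block (7 without it), and 15 by edgeR. Barx2, a homeobox factor, had 11.2, 7.52 and 9.83 in the control and 29.3, 43.5 and 29.5 in the Ets1-KO libraries (log2 fold change 1.73, SE 0.31, limma adjusted p = 4.68e-06). Batf3, an AP-1 factor, had 2.80, 4.70 and 5.90 in control and 16.2, 18.2 and 13.6 in Ets1-KO libraries (log2 fold change 1.67, SE 0.44, limma adjusted p = 0.00549). Both are low genes with control means of 9.52 and 4.47, so they met the minimum of 10 through the Ets1-KO libraries. Neither group overlapped the other. Of the better measured factors, Nfil3 (E4BP4, a bZIP factor of several lymphoid lineages) had 135, 159.9 and 122 in control and 188, 239 and 205 in Ets1-KO libraries (log2 fold change 0.60, SE 0.12, limma adjusted p = 4.48e-05). Vdr, the vitamin D receptor, had 96.2, 79.0 and 86.5 in control and 148, 133 and 135 in Ets1-KO libraries (log2 fold change 0.67, SE 0.14, limma adjusted p = 0.00015). Zfpm1 (FOG1, a partner of GATA factors), Ybx3 and Lbh rose by 0.82, 0.57 and 0.53 (SE 0.18, 0.10 and 0.10, limma adjusted p = 0.000454, 5.4e-06 and 3.06e-05). Tbx21 (T-bet, the factor of type 1 helper cells) had 538, 546 and 558 in control and 655, 709 and 728 in Ets1-KO libraries, a smaller rise without overlap (log2 fold change 0.35, SE 0.08, limma adjusted p = 0.00169). The other 3 that passed were Batf, Zbtb32 and Trerf1. Among chromatin regulators, 1 of 37 rose and 3 fell. Ezh2, the methyltransferase of Polycomb repressive complex 2, had 444, 458 and 473 in control and 636, 717 and 666 in Ets1-KO libraries (log2 fold change 0.55, SE 0.09, limma adjusted p = 2.47e-08). Kdm1b (a histone demethylase) had 106, 82.8 and 109 in control and 70.8, 32.3 and 48.7 in Ets1-KO libraries (log2 fold change −1.02, SE 0.17, limma adjusted p = 3.96e-07), and Smarca2 (an ATPase of the SWI/SNF complex) 295, 289 and 321 in control and 237, 173 and 206 in Ets1-KO libraries (log2 fold change −0.56, SE 0.11, limma adjusted p = 1.08e-05). For these 3 genes no Ets1-KO library lay within the control range. The call of Batf3 was lost when replicate 1 was left out (limma adjusted p = 0.11). Batf3, Lbh, Tbx21 and Zfpm1 did not pass without replicate 2 (limma adjusted p between 0.107 and 0.155).

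Of the 31 genes of quiescent and memory T cells tested 10 fell, 0 rose and 21 did not pass, with 21 below 0 and a median of −0.17. Among all genes tested 2.96% fell. Limma called 6 falls of this list with no block, without replicate 2 or without replicate 3, and DESeq2 called 3, while edgeR called 10 falls and 1 rise. Tbc1d4, a Rab GTPase-activating protein that controls glucose transporter traffic, had 128, 135 and 127 in the control and 47.5, 62.7 and 37.4 in the Ets1-KO libraries (log2 fold change −1.41, SE 0.16, limma adjusted p = 4.93e-16). Lef1, an HMG-box factor of naive T cells, had 37.4, 22.6 and 20.6 in control and 11.1, 7.08 and 15.9 in Ets1-KO libraries, low values with separate groups (log2 fold change −1.19, SE 0.32, limma adjusted p = 0.00844). The related factor Tcf7 (TCF-1), chosen after its values were seen, had 47.6, 39.5 and 50.1 in control and 40.4, 14.2 and 26.1 in Ets1-KO libraries with overlapping groups (log2 fold change −0.86, SE 0.24, limma adjusted p = 0.00937). Satb1, a chromatin organiser of T cells, had 960.3, 856 and 866 in control and 799, 618 and 681 in Ets1-KO libraries (log2 fold change −0.36, SE 0.08, limma adjusted p = 0.000398). Btg1, an antiproliferative factor of resting T cells, had 197, 221 and 234 in control and 152, 149.6 and 143 in Ets1-KO libraries (log2 fold change −0.55, SE 0.12, limma adjusted p = 0.000212), and neither gene had overlapping groups. Slfn5, which is also in the interferon list, had 703, 655 and 767 in control and 481, 405 and 498 in Ets1-KO libraries, again with separate groups (log2 fold change −0.62, SE 0.09, limma adjusted p = 9.47e-11). Klf3 and Txnip fell by 0.43 and 0.39 (limma adjusted p = 0.00353 and 0.00887), and Pik3r1 and Sesn3 were the other 2 members that fell. In the fit without replicate 1, Lef1 no longer passed (limma adjusted p = 0.248). For Lef1, Satb1, Tcf7 and Txnip, leaving out replicate 2 ended the calls (limma adjusted p between 0.135 and 0.475). Klf3 and Tcf7 did not pass without replicate 3 (limma adjusted p between 0.0707 and 0.0949).

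**Figure D2:**
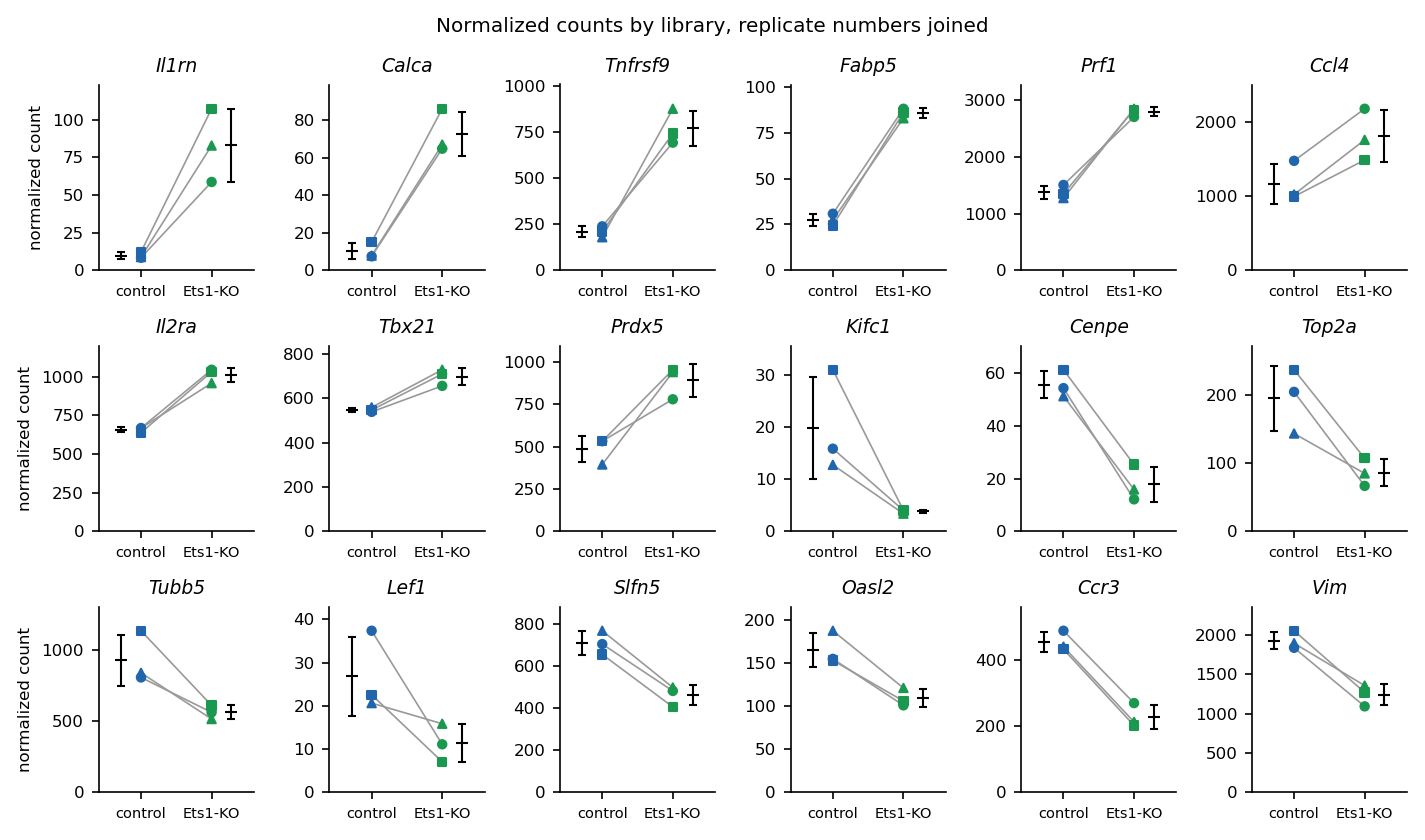
Normalised counts of 18 genes in each of the 6 parenchyma libraries, 9 that rose and 9 that fell, with a panel for each gene and a vertical axis that starts at 0. Circles, squares and triangles are replicates 1, 2 and 3, lines join the same number, and bars give the mean ± SD of 3 libraries. The 18 genes were picked from the called genes, and the groups are separate in each panel. Groups were also separate in 326 of the 366 called genes and in 1288 of all 7002 tested (18.4%).

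Signalling downstream of the T cell receptor was represented by 46 genes, of which 1 rose and 8 fell, with 32 below 0 and a median of −0.08, against 2.27% called higher and 2.96% lower among all genes tested. DESeq2 called 1 fall with the block and 2 without it, and limma called 5 without replicate 1 and 3 without replicate 2. The falls were of adaptors and negative regulators as well as of positive ones, and 0 of the receptor chains was among them. Grap, a GRB2-related adaptor, had 334, 306 and 305 in control and 244, 212 and 232 in Ets1-KO libraries (log2 fold change −0.46, SE 0.10, limma adjusted p = 0.000584). Dok2, an inhibitory adaptor, had 171, 164 and 151 in control and 95.0, 109 and 127 in Ets1-KO libraries (log2 fold change −0.56, SE 0.13, limma adjusted p = 0.000975). Was, the Wiskott-Aldrich protein that couples the receptor to actin, had 615, 718 and 633 in control and 434, 435 and 527 in Ets1-KO libraries (log2 fold change −0.50, SE 0.09, limma adjusted p = 1.07e-06). In these 3 genes the groups did not overlap. Fyb1 (ADAP) and Skap1, partners in the control of integrin adhesion, fell by 0.30 and 0.35 (SE 0.07 and 0.09), and Sit1, an inhibitory transmembrane adaptor, by 0.35 (SE 0.09), with limma adjusted p = 0.00152, 0.00375 and 0.00512. Dgka and Vav3 were the remaining 2, and the kinase Txk was the member that rose (log2 fold change 0.75, SE 0.21, limma adjusted p = 0.0142). Of 28 immediate early genes 3 rose and 1 fell, and Egr1 had 506, 714 and 641 in control and 641, 995 and 832 in Ets1-KO libraries with overlapping groups (log2 fold change 0.40, SE 0.08, limma adjusted p = 8.84e-05). The others were Nr4a2, the phosphatase Dusp2 (log2 fold change 0.23, SE 0.08, limma adjusted p = 0.0477) and, downward, the AP-1 subunit Jun (log2 fold change −0.43, SE 0.12, limma adjusted p = 0.0122). Of 33 NF-kB factors and feedback genes 2 rose, the adaptor Myd88 (log2 fold change 0.58, SE 0.10, limma adjusted p = 7.2e-07) and the survival gene Bcl2a1 (log2 fold change 0.66, SE 0.17, limma adjusted p = 0.00306). The 2 that fell were the inhibitor Tnip1 (log2 fold change −0.35, SE 0.09, limma adjusted p = 0.00655) and the subunit Nfkb1 (log2 fold change −0.45, SE 0.15, limma adjusted p = 0.0442, edgeR adjusted p = 0.0723). Dok2, Dusp2, Nfkb1, Skap1, Tnip1 and Txk did not pass once replicate 1 was left out (limma adjusted p between 0.0776 and 0.248). Bcl2a1, Dusp2, Egr1, Fyb1, Grap, Jun, Nfkb1, Sit1, Tnip1 and Txk did not pass without replicate 2 (limma adjusted p between 0.0612 and 0.407). For Dusp2, Jun, Nfkb1 and Txk, leaving out replicate 3 ended the calls (limma adjusted p between 0.0962 and 0.238).

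Interferon-stimulated genes were mostly below 0, 45 of the 57 tested, with a median of −0.20, while 6 fell and 1 rose. Over all genes tested 3181 of 7002 were above 0, the median was −0.03 and 2.96% fell. DESeq2 called 2 falls of this list, and limma called 3 without replicate 1 and 4 with no block or without replicate 2. Stat2, a factor that carries type I interferon signals to the nucleus, had 206, 172 and 239 in control and 149.6, 122 and 193 in Ets1-KO libraries, lower in each pair though the groups overlapped (log2 fold change −0.42, SE 0.12, limma adjusted p = 0.0113). Oasl2 had 155, 153 and 188 in control and 101, 106 and 121 in Ets1-KO libraries, and Lgals9 (galectin-9) 43.0, 44.2 and 44.2 in control and 20.2, 20.2 and 32.9 in Ets1-KO libraries, with separate groups in both (log2 fold changes −0.59 and −0.85, limma adjusted p = 0.000381 and 0.0116). Sp110 fell by 0.33 (limma adjusted p = 0.00699) and Slfn5 by the values given above. Ifitm1, a membrane protein that restricts viral entry, was the member that rose, at 1360.0, 1273 and 1301 in control and 1762, 1569 and 1784 in Ets1-KO libraries without overlap (log2 fold change 0.38, SE 0.07, limma adjusted p = 1.78e-05). Of 22 JAK-STAT and SOCS genes 2 fell, Stat2 among them, and the median was 0.01. Of 19 MHC class I genes 0 was called by limma, edgeR or DESeq2 and 3 had an unadjusted limma p under 0.05, with B2m, the light chain, at −0.02 (limma adjusted p = 0.939) and the chaperone Calr at 0.14 (limma adjusted p = 0.282). Of 7 MHC class II genes Cd74, the invariant chain, fell, with 392, 372 and 359 in control and 290.1, 282 and 241 in Ets1-KO libraries (log2 fold change −0.47, SE 0.10, limma adjusted p = 0.00015). Without replicate 1, the calls of Lgals9, Sp110 and Stat2 were lost (limma adjusted p between 0.116 and 0.166). For Lgals9, Sp110 and Stat2, leaving out replicate 2 ended the calls (limma adjusted p between 0.179 and 0.197).

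Genes of mitosis formed the list with the lowest median, −0.71, and 16 of its 40 tested members fell while 0 rose, against 2.96% called lower among all genes tested. The signs were 37 below 0 and 3 above. DESeq2 called 4 falls with the block and 7 without it, edgeR called 16, and limma called 10 without replicate 2 and 12 without replicate 1 or replicate 3. With a minimum mean count of 50, 11 mitosis genes remained, with 5 falls and a median of −0.304. The median of the 7 histone genes that remained was then lower, at −0.455. Kinesin motors of the spindle led the falls. Kifc1, a minus-end motor (chromosome 20, 5509058 to 5526175), had 15.9, 31.0 and 12.8 in control and 4.04, 4.04 and 3.40 in Ets1-KO libraries (log2 fold change −2.02, SE 0.43, limma adjusted p = 0.000218). Kif15, a spindle motor (chromosome 8, 132032943 to 132103927), had 34.6, 27.3 and 28.5 in control and 7.08, 17.2 and 4.53 in Ets1-KO libraries (log2 fold change −1.73, SE 0.33, limma adjusted p = 1.86e-05). Cenpe, the kinetochore motor, had 54.2, 61.1 and 51.1 in control and 12.1, 25.3 and 15.9 in Ets1-KO libraries (log2 fold change −1.65, SE 0.25, limma adjusted p = 4.75e-09). For these 3 genes the groups were separate. Top2a (topoisomerase II) had 205, 237 and 143 in control and 66.7, 107 and 85.0 in Ets1-KO libraries (log2 fold change −1.16, SE 0.13, limma adjusted p = 7.64e-16). The proliferation marker Mki67 had 210.2, 206 and 166 in control and 94.0, 104 and 65.7 in Ets1-KO libraries (log2 fold change −1.15, SE 0.13, limma adjusted p = 1.01e-15), and in neither gene was an Ets1-KO library in the control range. Cenpf, a kinetochore protein, had 112, 136 and 99.3 in control and 57.6, 74.8 and 43.1 in Ets1-KO libraries (log2 fold change −0.997, SE 0.16, limma adjusted p = 6.11e-08). Kif20b, Kif4a, Knstrn, Ube2c (an E2 of the anaphase-promoting complex) and Tpx2 (an activator of Aurora A) were among the 15 largest falls, at log2 fold changes of −1.67, −1.40, −1.42, −1.64 and −1.24. In bulk samples fewer cells in a state and less RNA per cell cannot be told apart. The call of Knstrn was lost when replicate 1 was left out (limma adjusted p = 0.16). Kifc1, Knstrn and Ube2c did not pass without replicate 2 (limma adjusted p between 0.088 and 0.354). For Kif4a, leaving out replicate 3 ended the call (limma adjusted p = 0.139).

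Of 32 DNA replication genes tested 1 rose and 1 fell, a share near the 5.23% called among all genes, and the median was −0.10 with 18 below 0 and 14 above. The member that rose was Ccnd2, the D-type cyclin of the G1 phase, with 99.0, 77.1 and 85.5 in control and 134, 148 and 131 in Ets1-KO libraries (log2 fold change 0.66, SE 0.14, limma adjusted p = 0.000185). The member that fell was Lig1, the ligase that joins Okazaki fragments, with 149, 171 and 129 in control and 78.9, 113 and 75.9 in Ets1-KO libraries (log2 fold change −0.75, SE 0.14, limma adjusted p = 6.18e-06). The groups of both genes did not overlap, and the difference between the mitosis and replication lists was not tested. Of 10 histone and linker histone genes 4 fell and 0 rose, against 2.96% called lower among all genes tested. Hist1h2an had 81.3, 101 and 73.7 in control and 42.5, 33.4 and 23.8 in Ets1-KO libraries (log2 fold change −1.36, SE 0.19, limma adjusted p = 3.95e-10). The linker histone genes H1f5 and H1f4 had 74.7, 79.0 and 46.2 in control and 29.3, 33.4 and 36.3 in Ets1-KO libraries (log2 fold change −0.96, SE 0.20, limma adjusted p = 0.000176), and 602, 529 and 552 in control and 476, 374 and 383 in Ets1-KO libraries (log2 fold change −0.45, SE 0.09, limma adjusted p = 2.93e-05). Dek, a chromatin protein, had 908, 962 and 891 in control and 687, 677 and 632 in Ets1-KO libraries (log2 fold change −0.47, SE 0.08, limma adjusted p = 7.51e-07). No Ets1-KO library lay in the control range for any of these 4 genes. Histone genes have near-identical copies, so reads may be split between them and the values of single genes are uncertain. In the fit without replicate 1, H1f5 no longer passed (limma adjusted p = 0.0606). For Ccnd2, leaving out replicate 2 ended the call (limma adjusted p = 0.0913).

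The promoters of the 2 largest rises and the 2 largest falls with an entry in RefSeq (GRCr8) are shown because genes of mitosis moved together and ETS1 binds ETS sites. Each is 250 bases before to 50 after the gene start, on the gene's strand and 5′ to 3′, and capitals mark matches on either strand to 5 motifs. These are CCGGAAG (a longer form of the ETS site, called the ETS core below), TTTGAA (the cell cycle homology region), the CCAAT box, TTGGCGC (an E2F site) and TGANTCA (an AP-1 site). GGAA outside CCGGAAG was neither marked nor counted, and the Il1rn and Calca promoters hold it. The intervals were chr3:27520072-27520371, plus strand for Il1rn, chr1:178317480-178317779, minus strand for Calca, chr20:5000679-5000978, plus strand for Kifc1 and chr8:131479154-131479453, plus strand for Kif15.
Il1rn: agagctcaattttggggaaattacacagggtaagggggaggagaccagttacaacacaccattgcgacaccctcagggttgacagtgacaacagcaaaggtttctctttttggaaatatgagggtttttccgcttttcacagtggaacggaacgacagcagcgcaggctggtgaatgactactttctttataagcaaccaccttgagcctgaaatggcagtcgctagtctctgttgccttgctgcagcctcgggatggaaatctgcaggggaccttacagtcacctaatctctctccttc
Calca: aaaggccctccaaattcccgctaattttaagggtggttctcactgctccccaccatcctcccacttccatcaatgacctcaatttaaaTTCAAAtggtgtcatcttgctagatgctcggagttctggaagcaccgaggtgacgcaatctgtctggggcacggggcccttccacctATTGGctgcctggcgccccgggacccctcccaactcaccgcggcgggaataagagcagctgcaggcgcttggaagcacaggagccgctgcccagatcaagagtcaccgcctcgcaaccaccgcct
Kifc1: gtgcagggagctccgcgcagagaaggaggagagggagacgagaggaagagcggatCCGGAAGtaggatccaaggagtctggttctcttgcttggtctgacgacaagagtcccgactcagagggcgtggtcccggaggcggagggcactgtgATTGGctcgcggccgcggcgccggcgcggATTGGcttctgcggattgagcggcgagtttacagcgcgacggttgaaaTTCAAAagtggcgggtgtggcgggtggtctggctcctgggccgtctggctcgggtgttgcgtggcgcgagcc
Kif15: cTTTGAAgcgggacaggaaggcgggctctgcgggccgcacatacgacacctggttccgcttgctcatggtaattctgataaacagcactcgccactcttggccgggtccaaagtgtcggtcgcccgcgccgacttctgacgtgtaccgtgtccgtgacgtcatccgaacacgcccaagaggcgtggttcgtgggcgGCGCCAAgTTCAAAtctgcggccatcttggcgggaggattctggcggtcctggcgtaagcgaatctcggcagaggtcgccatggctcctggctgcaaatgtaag

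Entries were found for 5494 of 6989 symbols tested, the first of several for 278. TTTGAA stood in 23 of the 36 promoters of tested mitosis genes (63.9%) and in 11 of the 13 of mitosis genes called lower (84.6%), compared with 4 of 28 of the replication list (14.3%), 11.2% of all genes tested and 18.3% of all 33469 promoters. Among mitosis genes that were not called it stood in 12 of 23 (52.2%). CCAAT stood in 28 of the 36 (77.8%), in 67.9% of the replication list and in 38.5% of all genes tested. The ETS core stood in 11.7% of the promoters of genes called higher and 13.5% of those called lower, compared with 22.3% of all genes tested and 8.75% of all promoters. In the mitosis list it stood in 11 of 36 (30.6%), with 5 of the 13 called lower (38.5%) and 6 of the 23 not called (26.1%). TTGGCGC stood in 7.03%, 5.13% and 4.61% of the promoters of genes called higher, called lower and tested, and TGANTCA in 4.69%, 3.85% and 4.39%. Of the 15 largest falls Kifc1, Kif20b and Kif4a held CCGGAAG, and of the 15 largest rises 0 of the 11 with an entry did. Other sites with GGAA were not counted. A match is a description of letters in this window and was set against no test.

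Cytoskeletal genes changed in both directions, with 4 of the 73 actin and motility regulators higher and 11 lower, against 2.27% and 2.96% of all genes tested. The 11 falls became 4 without replicate 2, 7 with no block, and 2 and 3 by DESeq2 with and without the block. Ppp1r9b (spinophilin), a scaffold for protein phosphatase 1 on actin, had 425, 458 and 501 in control and 299, 288 and 261 in Ets1-KO libraries (log2 fold change −0.70, SE 0.10, limma adjusted p = 4.32e-11). Arhgef18 and Arhgef1, exchange factors for RhoA, fell by 0.68 and 0.47 (limma adjusted p = 3.69e-06 and 0.00298). Rac2, the Rac GTPase of blood cells, had 1579, 1593 and 1477 in control and 1246, 1257 and 1300.0 in Ets1-KO libraries (log2 fold change −0.29, SE 0.07, limma adjusted p = 0.00302). Plek (pleckstrin) rose, with 163, 117 and 159 in control and 346, 183 and 273 in Ets1-KO libraries (log2 fold change 0.83, SE 0.11, limma adjusted p = 9.32e-11). So did Ccdc88a (girdin, log2 fold change 0.70, SE 0.10, limma adjusted p = 1.98e-10) and the actin-sequestering peptide Tmsb4x (log2 fold change 0.28, SE 0.06, limma adjusted p = 0.000903). Of 24 S100, annexin, vimentin and tubulin genes 2 rose and 2 fell. Vim, the intermediate filament vimentin, had 1833, 2049 and 1891 in control and 1091, 1268 and 1354 in Ets1-KO libraries, and Tubb5, a beta tubulin, 809.9, 1139 and 842 in control and 564, 613 and 517 in Ets1-KO libraries, with all Ets1-KO libraries below the controls (log2 fold changes −0.64 and −0.71, limma adjusted p = 2.16e-16 and 1.43e-15). S100a6 and Ahnak, which form a complex at the membrane, rose by 0.56 and 0.41 (limma adjusted p = 1.25e-09 and 0.00353). Of 29 integrins and adhesion molecules 3 rose and 3 fell. Magi3, a scaffold of cell junctions, had 57.9, 34.8 and 55.0 in control and 106, 97.0 and 113 in Ets1-KO libraries (log2 fold change 1.12, SE 0.17, limma adjusted p = 6.38e-09). Jaml, a junctional adhesion protein, rose by 0.83 (limma adjusted p = 6.05e-05). Cd44, the hyaluronan receptor, had 152, 173 and 147 in control and 95.0, 120.3 and 98.6 in Ets1-KO libraries without overlap (log2 fold change −0.59, SE 0.13, limma adjusted p = 0.000484). Itga1 fell by limma with overlapping groups (log2 fold change −0.64, SE 0.20, limma adjusted p = 0.0367, edgeR adjusted p = 0.0575). Rac2 and Tmsb4x did not pass once replicate 1 was left out (limma adjusted p between 0.0534 and 0.131). Ahnak, Arhgef1, Itga1, Rac2 and Tmsb4x did not pass without replicate 2 (limma adjusted p between 0.101 and 0.228). For Arhgef1 and Itga1, leaving out replicate 3 ended the calls (limma adjusted p between 0.0518 and 0.605).

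Cyclic AMP and G protein regulators gave 3 rises and 2 falls among 36 (13.9% called, against 5.23% of all genes tested). Pde8a, a high-affinity cAMP phosphodiesterase, had 24.3, 10.3 and 17.7 in control and 43.5, 50.5 and 48.7 in Ets1-KO libraries, whereas Pde4b, the main phosphodiesterase of activated T cells, had 141, 144 and 131 in control and 79.9, 90.0 and 87.3 in Ets1-KO libraries. The 2 enzymes moved in opposite directions without overlap (log2 fold changes 1.47 and −0.69, SE 0.26 and 0.14, limma adjusted p = 1.35e-06 and 8.64e-05). Rgs16 and Rgs2, which shorten G protein signals, rose by 1.10 and 0.35 (limma adjusted p = 2.33e-13 and 0.0132). Ramp3, an accessory protein of the receptors for adrenomedullin and CGRP, had 104, 81.8 and 90.4 in control and 66.7, 38.4 and 86.1 in Ets1-KO libraries, with overlap through replicate 3 (log2 fold change −0.59, SE 0.16, limma adjusted p = 0.0105), while the ligand gene Calca rose. Of 35 BCL2 family and death genes 2 rose and 1 fell (8.6% called, against 5.23% of all genes tested). Bcl2l11 (BIM, which promotes death) had 161, 137 and 142 in control and 277, 305 and 331 in Ets1-KO libraries (log2 fold change 1.05, SE 0.11, limma adjusted p = 2.48e-18), and Bcl2a1, which opposes death, had 67.3, 45.1 and 61.9 in control and 100.1, 85.9 and 88.4 in Ets1-KO libraries, so that genes of opposite function rose. Dap fell, with 396, 371 and 381 in control and 249.7, 265 and 274 in Ets1-KO libraries (log2 fold change −0.54, SE 0.10, limma adjusted p = 4.68e-06). Of 12 GIMAP and lymphocyte GTPase genes Gimap6 fell (log2 fold change −0.61, SE 0.15, limma adjusted p = 0.00288). Without replicate 1, the calls of Ramp3 and Rgs2 were lost (limma adjusted p between 0.12 and 0.176). For Bcl2a1, Gimap6, Ramp3 and Rgs2, leaving out replicate 2 ended the calls (limma adjusted p between 0.088 and 0.445). Gimap6 and Rgs2 did not pass without replicate 3 (limma adjusted p between 0.0601 and 0.11).

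Calls among metabolic genes were spread over several lists. Fabp5, a fatty acid binding protein, had 30.8, 24.4 and 27.5 in control and 87.9, 85.9 and 82.7 in Ets1-KO libraries, 3.04-fold by the limma fit (log2 fold change 1.603, SE 0.20, limma adjusted p = 2.85e-13). It was the 1 gene called among 32 sterol and fatty acid genes, of which 23 were above 0 with a median of 0.19. Of 22 glycolysis genes 4 rose and 1 fell, with 16 above 0 and a median of 0.20. The members that rose were Hk2 (hexokinase 2) at 106, 81.8 and 91.4 in control and 147, 90.0 and 170.0 in Ets1-KO libraries, the lactate exporter Slc16a3 at 89.7, 45.1 and 69.8 in control and 100.1, 83.9 and 124 in Ets1-KO libraries, its chaperone Bsg and the pyruvate carrier Mpc1, with log2 fold changes of 0.49, 0.62, 0.53 and 0.43 (limma adjusted p = 0.0123, 0.00394, 0.0111 and 0.0461). The first 3 of these had overlapping groups, and 0 of the 5 calls of the list held in limma without the block or without replicate 3, or in DESeq2. Eno3, the muscle enolase, fell at low counts (log2 fold change −1.14, SE 0.37, limma adjusted p = 0.0411). Among nuclear-encoded respiratory chain genes 1 of 69 rose, Uqcrq (log2 fold change 0.31, SE 0.10, limma adjusted p = 0.0347), although 52 were above 0. Of the 12 mitochondrially encoded genes Mt-atp8 fell by limma with overlapping groups (log2 fold change −0.22, SE 0.07, limma adjusted p = 0.0266) and not by edgeR (adjusted p = 0.0762). Of 39 genes of transporters, ion pumps and related enzymes 6 rose and 2 fell, while 2 rose with no block or without replicate 2 and 1 by DESeq2. In the main fit 20.5% of the 39 were called, against 5.23% of all genes tested. Alpl (alkaline phosphatase) had 7.47, 7.52 and 4.91 in control and 24.3, 29.3 and 26.1 in Ets1-KO libraries (log2 fold change 1.87, SE 0.36, limma adjusted p = 2.01e-05). Ckb (brain-type creatine kinase) had 285, 442 and 351 in control and 193, 229 and 207 in Ets1-KO libraries (log2 fold change −0.75, SE 0.10, limma adjusted p = 7.51e-11), and neither gene had overlapping groups. Slc7a6 (an amino acid exchanger), Kcnk5 (a potassium channel) and the ion pump genes Atp1b3 and Atp2b4 rose by 0.76, 1.14, 0.41 and 0.31, and Slc4a7 fell by 0.29 (limma adjusted p = 0.00565, 0.0498, 0.0369, 0.00179 and 0.0139). The calls of Atp1b3, Eno3, Hk2, Kcnk5, Mpc1, Mt-atp8 and Slc4a7 were lost when replicate 1 was left out (limma adjusted p between 0.0616 and 0.284). Atp1b3, Atp2b4, Bsg, Eno3, Mpc1, Mt-atp8, Slc16a3, Slc4a7, Slc7a6 and Uqcrq did not pass without replicate 2 (limma adjusted p between 0.0865 and 0.852). For Bsg, Eno3, Hk2, Kcnk5, Mpc1, Slc16a3, Slc4a7, Slc7a6 and Uqcrq, leaving out replicate 3 ended the calls (limma adjusted p between 0.0767 and 0.447).

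Of 28 peroxiredoxin and antioxidant genes 4 rose and 3 fell, while limma without replicate 2 called 1 in each direction and DESeq2 with the block 2 rises. Prdx5, a mitochondrial and peroxisomal peroxiredoxin, had 532, 531 and 394 in control and 778, 952 and 938 in Ets1-KO libraries, a clear separation (log2 fold change 0.88, SE 0.08, limma adjusted p = 3.09e-23). The cytosolic Prdx2 had 381, 367 and 379 in control and 498, 505 and 484 in Ets1-KO libraries (log2 fold change 0.40, SE 0.09, limma adjusted p = 0.000627), and Txn1 and Txnrd1, thioredoxin and its reductase, rose by 0.50 and 0.35 (limma adjusted p = 0.0475 and 0.0257). The thioredoxin-binding protein Txnip had 233, 371 and 261 in control and 187, 234 and 231 in Ets1-KO libraries, lower in each pair with overlap (log2 fold change −0.39, SE 0.11, limma adjusted p = 0.00887). Selenom had 31.8, 49.8 and 48.2 in control and 19.2, 18.2 and 14.7 in Ets1-KO libraries (log2 fold change −1.25, SE 0.26, limma adjusted p = 0.000132), and Keap1, the sensor that restrains NRF2, fell by 0.43 (limma adjusted p = 0.0324). Of 42 lysosome and cathepsin genes 4 rose and 3 fell (16.7% called, against 5.23% of all genes tested). Ctsb (cathepsin B) had 474, 514 and 469 in control and 780.4, 995 and 886 in Ets1-KO libraries (log2 fold change 0.86, SE 0.08, limma adjusted p = 1.65e-22) and its inhibitor-family member Cst7 had 57.0, 40.4 and 41.3 in control and 100.1, 106 and 90.7 in Ets1-KO libraries, both with separate groups. Grn (progranulin) fell, with 1088, 1097 and 1118 in control and 689, 909.8 and 809 in Ets1-KO libraries (log2 fold change −0.46, SE 0.08, limma adjusted p = 3.13e-07), and Gusb (beta-glucuronidase) rose by 0.55 (limma adjusted p = 0.0216). Ctsb, Cst7, Grn and Fabp5 are also abundant in myeloid cells, and the part of the myeloid markers given above was not tested. In the fit without replicate 1, Gusb, Keap1 and Txn1 no longer passed (limma adjusted p between 0.0693 and 0.263). For Gusb, Keap1, Prdx2, Txn1, Txnip and Txnrd1, leaving out replicate 2 ended the calls (limma adjusted p between 0.086 and 0.475). Txn1 and Txnrd1 did not pass without replicate 3 (limma adjusted p between 0.105 and 0.164).

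Of 57 cytosolic ribosomal protein genes 48 were below 0, the median was −0.16, and 4 fell while 1 rose. Over all genes 3181 of the 7002 tested were above 0, and 5.23% were called. The falls of this list numbered 0 without replicate 1 or replicate 2, 12 without replicate 3, 2 with no block and 0 by DESeq2. Rpsa had 569.8, 607 and 514 in control and 406, 444 and 474 in Ets1-KO libraries (log2 fold change −0.35, SE 0.09, limma adjusted p = 0.00288), with no overlap between groups. Rpl15 fell by limma (log2 fold change −0.22, SE 0.07, limma adjusted p = 0.0418) and not by edgeR (adjusted p = 0.103), and Rps27l, a paralogue induced by p53, rose (log2 fold change 0.42, SE 0.14, limma adjusted p = 0.0459). Of 60 ribosome biogenesis and MYC-linked growth genes 44 were above 0, the median was 0.10, and 4 rose while 1 fell. DESeq2 with the block called 0 of the 60, and limma with no block called 1 rise. Nolc1, a nucleolar phosphoprotein, had 177, 153 and 139.6 in control and 233, 223 and 214 in Ets1-KO libraries (log2 fold change 0.51, SE 0.12, limma adjusted p = 0.000525). Psat1 (serine synthesis), Ranbp1 and Ran (nuclear transport) rose by 0.79, 0.63 and 0.39, and Impdh1 (guanine nucleotide synthesis) fell by 0.86 (limma adjusted p = 0.0165, 0.00872, 0.0369 and 0.00751). In the proteasome 1 of 40 genes rose, Psmd14 (log2 fold change 0.36, SE 0.10, limma adjusted p = 0.00883). Among 43 chaperones Dnajb6 rose (log2 fold change 0.36, SE 0.09, limma adjusted p = 0.00389) and Canx (log2 fold change −0.28, SE 0.08, limma adjusted p = 0.00929) and Hyou1 (log2 fold change −0.41, SE 0.13, limma adjusted p = 0.0393, edgeR adjusted p = 0.062) fell. Ribosomal protein genes have many processed copies, so single values may be split between copies. Dnajb6, Hyou1, Impdh1, Psmd14, Ranbp1, Rpl15, Rps27l and Rpsa did not pass once replicate 1 was left out (limma adjusted p between 0.0535 and 0.465). Canx, Hyou1, Impdh1, Psat1, Psmd14, Ran, Rpl15 and Rpsa did not pass without replicate 2 (limma adjusted p between 0.131 and 0.504). For Canx, Hyou1, Ran, Ranbp1 and Rps27l, leaving out replicate 3 ended the calls (limma adjusted p between 0.0605 and 0.602).

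**Figure D3:**
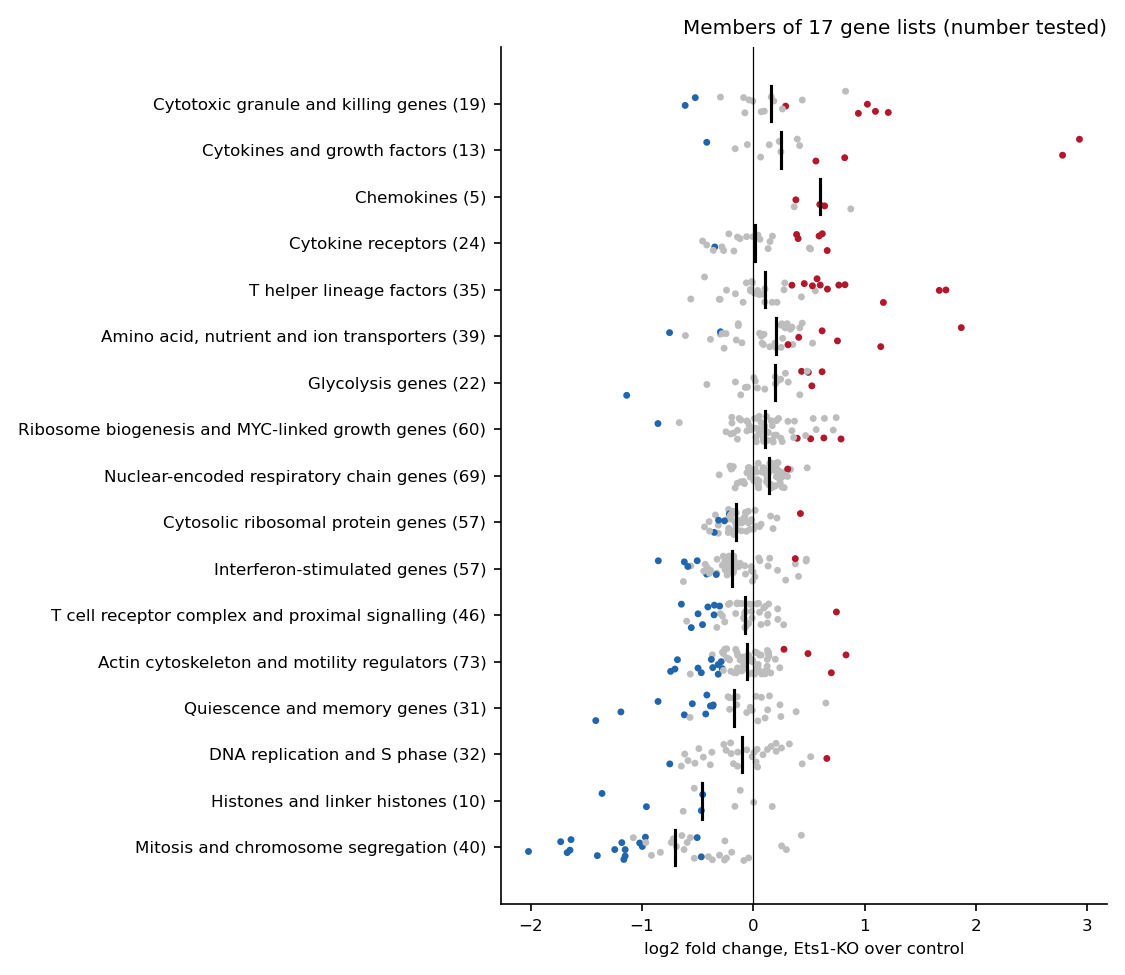
Log2 fold change of Ets1-KO against control in the parenchyma (horizontal axis) for the tested members of 17 gene lists (vertical axis), with a point for each gene, genes called higher in red and lower in blue, and a black bar at the median of the list. Mitosis genes have the lowest median (−0.71, 16 of 40 lower) and chemokines the highest (0.60, 3 of 5 higher). With a minimum mean count of 50 the mitosis median was −0.304 over 11 genes.

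Of the 366 genes called 199 were in none of the lists, 81 higher and 118 lower. Several of the largest changes were among them. AABR07027872.1, a gene model with no name (chromosome 17, 47870610 to 47878555), had 91.5, 116 and 95.3 in control and 21.2, 29.3 and 18.1 in Ets1-KO libraries, the most negative log2 fold change of the genes named (log2 fold change −2.11, SE 0.20, limma adjusted p = 7.02e-23). Foxq1, a forkhead factor, had 3.74, 9.40 and 3.93 in control and 21.2, 17.2 and 15.9 in Ets1-KO libraries, and Mfge8, which bridges dying cells to phagocytes, 6.54, 14.1 and 5.90 in control and 17.2, 26.3 and 35.1 in Ets1-KO libraries. Adam18, a metalloprotease-family gene known from sperm, had 6.54, 8.46 and 6.88 in control and 24.3, 34.4 and 13.6 in Ets1-KO libraries, and Styk1, a kinase-like membrane protein, 3.74, 7.52 and 3.93 in control and 8.09, 20.2 and 19.3 in Ets1-KO libraries. These 4 rises were of low genes with separate groups, at log2 fold changes of 1.603, 1.504, 1.51 and 1.43 (SE 0.41, 0.35, 0.36 and 0.44). Apart from 1 Mfge8 library at 14.1, their control libraries were below the minimum of 10, which the genes met through the Ets1-KO libraries. Of the falls, Alpk3, an alpha kinase, had 15.9, 13.2 and 16.7 in control and 4.04, 9.10 and 3.40 in Ets1-KO libraries, and Kctd17, a substrate adaptor of ubiquitin ligases, 30.8, 18.8 and 25.6 in control and 8.09, 8.09 and 14.7 in Ets1-KO libraries, also without overlap (log2 fold changes −1.41 and −1.23, limma adjusted p = 0.0247 and 0.00827). Without replicate 1, the calls of Adam18, Alpk3, Foxq1 and Kctd17 were lost (limma adjusted p between 0.0513 and 0.252). For Adam18 and Styk1, leaving out replicate 2 ended the calls (limma adjusted p = 0.149 and 0.203). Alpk3, Mfge8 and Styk1 did not pass without replicate 3 (limma adjusted p between 0.168 and 0.303).

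The same genotypes from the spleen of such rats, 3 libraries each, allowed a test of whether the Ets1-KO effect depended on the tissue, for which limma was applied to the log2 ratios of the replicate numbers, each taken within its table. Of the 6520 genes tested 137 (2.1%) differed, 44 more positive (0.675%) and 93 more negative (1.43%) in the parenchyma. Without replicate 1 this count was 26, without replicate 2 72 and without replicate 3 96. The spleen Ets1-KO libraries held 1909862 to 2248258 reads on genes and the spleen controls 898092 to 1213485, a gap of depth that goes with genotype. The part of this gap in the differences was not tested. Prf1, Nkg7 and Ccl4 rose in the parenchyma while their spleen ratios were below 0. The log2 ratio was 1.02 in the parenchyma and −0.35 in the spleen for Prf1 (difference 1.38, SE 0.15, limma adjusted p = 2.49e-07). It was 1.21 and −0.06 for Nkg7 (difference 1.27, limma adjusted p = 1.85e-07), and 0.64 and −0.93 for Ccl4 (difference 1.57, limma adjusted p = 6.52e-06). Vdr gave the largest positive difference of the genes named, 2.32 (SE 0.31, limma adjusted p = 7.72e-06), with ratios of 0.67 and −1.65. Il2ra (0.62 and −0.10, limma adjusted p of the difference = 0.00347) and Fabp5 (1.603 and −0.10, 0.00634) differed likewise. For Ccr6 no difference passed (1.40 and 1.25, limma adjusted p = 0.882), nor for Il17a (0.56 and 0.27, 0.497), and Il1rn, Calca and Tnfrsf9 did not enter this test.

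Downward, Ccr3 had a ratio of −0.997 in the parenchyma and 0.19 in the spleen (difference −1.18, SE 0.17, limma adjusted p = 2.16e-05), and Slfn5 −0.62 and 0.25 (difference −0.87, limma adjusted p = 8.76e-05). Over the genes tested in both tissues, interferon-stimulated genes had a median of −0.20 in the parenchyma and 0.09 in the spleen, with 4 differences that passed, all more negative in the parenchyma. The 54 ribosomal protein genes tested in both had medians of −0.16 and 0.31, with 9 that passed, all more negative in the parenchyma. Mitosis genes had medians below 0 in both tissues, at −0.71 and −0.53, and 5 passed, all more negative in the parenchyma, Cenpe among them (−1.65 and −0.52, limma adjusted p = 0.00108). For Top2a and Mki67 the difference did not pass (limma adjusted p = 0.067 and 0.0756). DNA replication genes had a median of −0.10 in the parenchyma and −0.39 in the spleen, and 1 difference passed, more positive in the parenchyma. T helper lineage factors had medians of 0.10 and −0.08, and cytotoxic granule genes 0.17 and −0.04, each with 4 differences that passed, all more positive in the parenchyma.

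**Figure D4:**
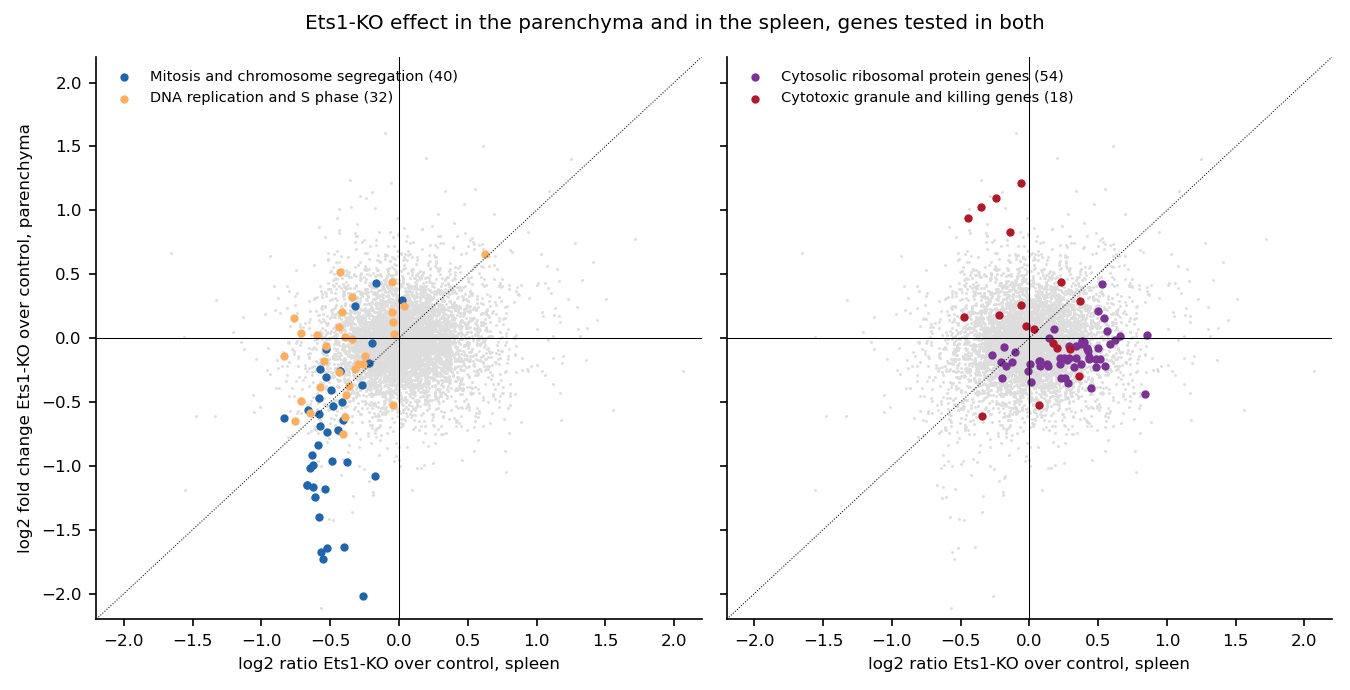
Log2 ratio of Ets1-KO to control in the parenchyma (vertical axis) and in the spleen (horizontal axis) for the 6520 genes tested in both (grey), with 40 mitosis and 32 DNA replication genes coloured in the left panel and 54 ribosomal protein and 18 cytotoxic granule genes in the right panel. Both axes end at ±2.2, which leaves 1 gene outside, and the dotted line marks equal ratios. Most mitosis genes lie below 0 on both axes, and most ribosomal protein genes lie below 0 in the parenchyma and above 0 in the spleen.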

How the data were processed

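Per the labels and methods, RNA of sorted TMBP cells was made into 3′ libraries with the Collibri 3′ mRNA kit and read single-end. The submitters' processing notes name STAR 2.7.2b, HTSeq 1.0.0, DESeq2 2.11.40.7, R 4.0.0 and the build Rnor_6.0. The signal values deposited by the authors are read counts per gene divided by a size factor from DESeq2's poscounts method, set within each tissue's table. All values (100%) were whole multiples of 1 step per library within 0.01, and reads were recovered from them. How reads with several matches were treated and whether counting used strand are not given in the sources used here. Replicate and animal are not linked in the labels, so the p-values cannot be read as a spread between animals. The limma errors of the parenchyma comparison came from the trend over genes. Its p-values therefore do not measure the spread of each gene between its own libraries. The authors' fold changes and p-values of the same comparisons, and 8 columns of human values, were not used.

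Genes with a mean of at least 10 were tested, two-sided, with limma 3.58.1 (lmFit, eBayes with a trend) on log2(normalised count + 1), with the replicate number as a block and Benjamini-Hochberg adjustment over all genes tested. Fold changes on this scale understate the changes of low genes. The minimum was taken over both genotypes, so a gene low in 1 of them could meet it through the other. edgeR 4.0.16 and DESeq2 1.42.0 ran on the recovered reads. Tissue differences were tested with limma on the 3 log2 ratios of each tissue. The limma and edgeR tests, and limma's test of the ratios, were tried on simulated data in which the changes were known. DESeq2 and the permutation test were not. The simulated ratios had the same spread for every gene, so that trial cannot show how gene-specific spread affects the calls. The alternatives were no block, pseudocounts of 0.1 and 5, no filter, a minimum of 50, quantile and upper quartile scaling, no trend, each replicate left out, edgeR with TMM or RLE, and DESeq2 with and without the block. Each gene kept 2 residual degrees of freedom, and the errors came from the trend.

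Genes were named by a rule: Ets1, 6 genes named by the study, the 15 largest rises and falls called by limma and edgeR with all pairs in 1 direction, up to 6 called members of each list in each direction (or the 2 most abundant where 0 was called), and the 10 smallest adjusted p of the tissue difference in each direction. Members and lists were chosen with earlier results of these data known. Where a sentence gives only the names of the remaining called members of a list, they were added for completeness. Some genes that the rule names are not reported here. Fold changes are Ets1-KO against control, SE is the standard error, and gene positions are those of Rnor_6.0. All sequences but the guides, which come from the study's oligonucleotide list, are from RefSeq.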

Additional observations from a re-analysis of the deposited data

Results flagged for a closer look

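The effect of Ets1 editing differed between the parenchyma and the spleen for 137 genes by limma's test of the difference itself, with 897 genes at an unadjusted p under 0.05. The differences below are the parenchyma log2 ratio minus the spleen log2 ratio, from 3 ratios per tissue. Of the 10 named by the smallest adjusted p in the positive direction, secreted and granule genes gave 1.57 for Ccl4 (SE 0.20, limma adjusted p = 6.52e-06), 1.38 for Prf1 (SE 0.15, limma adjusted p = 2.49e-07) and 1.27 for Nkg7 (SE 0.14, limma adjusted p = 1.85e-07). Transcription and chromatin factors gave 2.32 for Vdr (SE 0.31, limma adjusted p = 7.72e-06), 1.19 for Ybx3 (SE 0.16, limma adjusted p = 1.87e-05) and 0.88 for Ezh2 (SE 0.14, limma adjusted p = 0.00011). Genes of nuclear transport and the nucleolus gave 1.13 for Rangap1 (SE 0.18, limma adjusted p = 0.00013) and 0.88 for Nolc1 (SE 0.17, limma adjusted p = 0.00189), and the others were 0.83 for Ctsb (SE 0.15, limma adjusted p = 0.000991) and 0.78 for Hdgf (SE 0.15, limma adjusted p = 0.00189). Hdgf (hepatoma-derived growth factor) was not called in the parenchyma itself (0.22, limma adjusted p = 0.263).

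In the negative direction the values were −1.18 for Ccr3 (SE 0.17, limma adjusted p = 2.16e-05), −1.24 for Podnl1 (SE 0.20, limma adjusted p = 0.000198) and −1.06 for Ckb (SE 0.17, limma adjusted p = 0.000139). Podnl1, a small leucine-rich proteoglycan, had 159.7, 156 and 132 normalised counts in control and 100.1, 90.0 and 85.0 in Ets1-KO libraries of the parenchyma, without overlap, and a spleen log2 ratio of 0.55. Further values were −1.12 for Cenpe (SE 0.20, limma adjusted p = 0.00108), −0.99 for Dap (SE 0.14, limma adjusted p = 2.16e-05) and −0.87 for Slfn5 (SE 0.13, limma adjusted p = 8.76e-05). Genes whose parenchyma effect alone did not pass gave −0.80 for Ifi27l2b (SE 0.14, limma adjusted p = 0.000381), −0.94 for Rps18l1 (SE 0.17, limma adjusted p = 0.000956), −0.89 for AABR07058519.1 (SE 0.15, limma adjusted p = 0.000447) and −3.08 for AABR07017634.1 (SE 0.50, limma adjusted p = 0.000184). AABR07017634.1 had 26.2, 27.3 and 15.7 in control and 30.3, 24.3 and 41.9 in Ets1-KO libraries of the parenchyma with overlap, and a log2 ratio of 3.55 in the spleen.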

How the results depend on the processing

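Against 366 genes called (159 higher and 207 lower), the count was 200 (99 and 101) with no replicate block, 212 (108 and 104) with no filter, 277 (146 and 131) after quantile normalization, 86 (59 and 27) by DESeq2 with the block, 122 (76 and 46) by DESeq2 without it, and 3 (2 and 1) without the trend, where 893 genes had an unadjusted p under 0.05. Leaving out 1 replicate number at a time gave 165 to 278 calls, 80 to 131 higher and 85 to 147 lower. Other pseudocounts, a minimum of 50, upper quartile scaling and edgeR kept the total within 1.5 times, and all calls shared with limma had its sign in every alternative. DESeq2 with the block gave no adjusted p for 1765 genes. The 137 tissue differences became 158 with a replicate block across tissues, 29 with no filter, 2 without the trend and 26 to 96 with 1 replicate left out. The causes of these changes were not tested. Of 169 named calls, 46 were lost without the block, 45 with no filter, 166 without the trend, 53, 74 and 38 without replicates 1, 2 and 3, and 0 changed sign. By DESeq2, 79 were lost with the block and 70 without it. A further 20 and 11 had no adjusted p there. The Ets1 log2 fold change stayed between 0.03 and 0.12, and did not pass, in every alternative.

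The replicate block rests on the co-transfer design. Deviations of same-numbered libraries from their group means correlated, across genes that are not independent, at 0.126, 0.159 and −0.00299 in the parenchyma, and at 0.00369, 0.0523 and −0.0114 between the ratios of the 2 tissues. The numbers are therefore not shown to mark a shared animal. At 1246779 to 1546206 reads per parenchyma library, genes near the minimum of 10 rest on few reads, and their changes carry the widest errors.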

Other observations

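Further groups were put together with their values in view, so that their counts are descriptions. Among all genes tested 2.27% were called higher and 2.96% lower. Of 5 core genes of the exon junction complex, which marks spliced mRNA, 3 rose. Magohb had 50.4, 64.9 and 57.0 normalised counts in control and 104, 107 and 81.6 in Ets1-KO libraries (log2 fold change 0.75, SE 0.16, limma adjusted p = 0.000318), its paralogue Magoh 106, 115 and 112 in control and 138, 157 and 185 in Ets1-KO libraries (log2 fold change 0.51, SE 0.13, limma adjusted p = 0.00357), and their partner Rbm8a 954, 947 and 978 in control and 1186, 1216 and 1225 in Ets1-KO libraries (log2 fold change 0.33, SE 0.08, limma adjusted p = 0.00059), with no overlap between the groups in any of the 3. Of 19 cytosolic aminoacyl-tRNA synthetase genes, which load tRNA with amino acids, 16 were above 0 and 3 rose, namely Vars1 (log2 fold change 0.72, SE 0.15, limma adjusted p = 8.4e-05), Gars (log2 fold change 0.37, SE 0.12, limma adjusted p = 0.0431) and Eprs (log2 fold change 0.27, SE 0.08, limma adjusted p = 0.0251). Of 7 genes of the Ran GTPase cycle 3 rose, Ran, Ranbp1 and Rangap1 (log2 fold changes 0.39, 0.63 and 0.61, limma adjusted p = 0.0369, 0.00872 and 0.00014). Of 7 septin genes, whose products form filaments at the cell cortex, 2 fell, Septin1 at 508, 484 and 451 in control and 368, 385 and 425 in Ets1-KO libraries (log2 fold change −0.29, SE 0.09, limma adjusted p = 0.0293) and Septin6 at 378, 402 and 394 in control and 319, 300.2 and 318 in Ets1-KO libraries (log2 fold change −0.32, SE 0.10, limma adjusted p = 0.0205). Of 20 kinesins tested 6 fell, all in the mitosis list, and Kif3a rose. The calls of Eprs, Magohb, Ranbp1, Septin1 and Septin6 were lost when replicate 1 was left out (limma adjusted p between 0.0631 and 0.413). Eprs, Gars, Ran, Rbm8a, Septin1 and Septin6 did not pass without replicate 2 (limma adjusted p between 0.088 and 0.317). For Gars, Magoh, Ran, Ranbp1, Rangap1 and Septin6, leaving out replicate 3 ended the calls (limma adjusted p between 0.0565 and 0.569).

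Some called genes are neighbours in the genome. Of 8247 pairs of tested genes at most 100 kb apart, 30 had both genes called, 24 of them in the same direction. Among those higher in Ets1-KO cells were Magohb, Styk1 and Ybx3, Il4r and Il21r, Ccl3 and Ccl4, and Ccr6 and Mpc1, and among those lower were Dek and Kdm1b, whose annotated ends lie 137 bases apart. With 5.23% of all genes tested called, some such pairs arise without any link between neighbours, and the pairs were not tested against chance. Overlapping or shared reads were not examined. Within 2 Mb of Ets1 on chromosome 8, 7 other genes were tested and 1 was called, Barx2, which lies 799 kb from Ets1 and rose by 1.73 on the log2 scale (SE 0.31, limma adjusted p = 4.68e-06). Fli1, the ETS gene 155 kb away, had a log2 fold change of −0.18 (SE 0.13, limma adjusted p = 0.517).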
